A study of Glycine soja with 4 samples.

Results

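The miR166 family of wild soybean (*Glycine soja*) roots was read from the deposited lists of 2 small RNA libraries, as every listed name of miR166, whatever its suffix. This rule gave 3 of the 217 distinct sequences of the series, PN-miR166b, PN-miR166 and PN-miR166a*, where PN is the study's prefix for a potentially new miRNA and the asterisk the strand opposite the mature miRNA. Seedlings of the line BW69 grew at pH 4.5 in nutrient solution that held 0 µM AlCl3 (Al-free) or 50 µM AlCl3 (Al-treated). The apical 10 cm of the roots was harvested at 7 times between 1 and 96 h. Roots of all times were pooled into 1 small RNA library and 1 degradome library for each condition, without replicates. Every test below therefore compares the reads of 2 libraries and not the conditions, and every interval covers counting error only. Cell types and root zones could not be told apart, and in such bulk samples fewer cells of a type and less RNA per cell cannot be told apart either.

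In plants, a miRNA is cut by a Dicer-like enzyme from the stem of a hairpin precursor as a duplex of a 5p and a 3p strand with short 3′ overhangs. The strand that is kept in an Argonaute protein guides the cleavage of complementary transcripts, and the other strand is mostly degraded. In *Arabidopsis*, miR166 comes from the 3p arm and guides the cleavage of transcripts of class III homeodomain-leucine zipper transcription factors, such as PHABULOSA and REVOLUTA. In *Arabidopsis* roots, miR165 and miR166 are made in the endodermis, move into the stele and set the pattern of the xylem through these factors.

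The sequences are shown first because the members differ in a few bases and in the strand they come from. Each is written 5′ to 3′ with its seed (bases 2 to 8) in capitals. PC-14-5p, a predicted candidate (PC), is not a member by its deposited name. It was singled out after its reads had been seen, because the study's supplementary list gives the identical sequence as PN-miR166i-5p.
PN-miR166b: tCGGACCAggcttcattccct
PN-miR166: cGGACCAGgcttcattcccc
PN-miR166a*: gGAATGTTgtctggctcgaggt
PC-14-5p: gGAATGTCgtttggttcgaga

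PN-miR166b and PN-miR166 are both 3p sequences and nearly the same. PN-miR166 starts at base 2 of PN-miR166b, and 19 of its 20 bases are identical to it. The only difference in the overlap is T21C, with the base of PN-miR166b first and positions counted from 1 at its 5′ end. The later start shifts the seed by 1 base and changes the first base from T to C, so no seed was shared between them. In *Arabidopsis*, the first base is known to bear on the sorting of small RNAs, with AGO1 mostly holding those that begin with U. The first 20 bases of PN-miR166b are identical to the sequence that the supplementary list gives for PN-miR166h and PN-miR166j, so the reads of PN-miR166b may come from several precursors. No sequence of the lists outside the family shared a seed with a member. None outside it matched the first 15 bases of PN-miR166b with at most 2 mismatches. This search returned only PN-miR166b itself. It missed the member PN-miR166, whose later start shifts the seed and the first bases. It also missed the predicted candidate shown above, which the supplementary list names as a miR166. The search therefore cannot show whether the lists hold further sequences like miR166.

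PN-miR166a* and PC-14-5p are 5p sequences. Set against PN-miR166b with a 3′ overhang of 2 bases on the 3p strand, each left 19 aligned positions, and the bases without a partner are in capitals below.
PN-miR166a*: ggaatgTTgtctggCtcgaggt
PC-14-5p: ggaatgTCgtttggttcgaga
PN-miR166a* had 14 Watson-Crick pairs, 2 G-U pairs and 3 mismatches. PC-14-5p had 14 Watson-Crick pairs, 3 G-U pairs and 2 mismatches. Both were unpaired at bases 7 and 8, opposite bases 13 and 12 of PN-miR166b. PN-miR166a* was also unpaired at base 15, opposite base 5. The 5p strand extended 3 bases beyond the aligned part in PN-miR166a* and 2 bases in PC-14-5p. The sequences of the 5p strands differed at 4 of 21 positions, namely T8C, C11T, C15T and G21A, with the base of PN-miR166a* first. This pairing was computed from the 2 strands alone, and no precursor was folded.

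The listed reads summed to 30411 without Al and 44493 with Al, over distinct sequences counted once. These sums are the listed miRNAs only and not the depth of the libraries. A single miRNA, gso-miR2218, held 23.9% and 42.8% of them. Counts were therefore normalized with the factors by which the study's normalized reads relate to its raw reads, under which an unchanged sequence has 52.8% of its reads in the Al-treated library.

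Both 3p sequences of miR166 were lower in the Al-treated library, and the 5p sequence PC-14-5p did not pass the test. PN-miR166b, the main mature sequence, had 687 raw reads in the Al-free library (95% Poisson interval from 637 to 740) and 292 in the Al-treated library (260 to 328). It was the 11th most abundant of all listed sequences in the Al-free library against the 19th in the Al-treated library. Its share of the listed reads was 2.26% and 0.656%. After normalization it had 726 and 276 reads, which is 2.63-fold lower in the Al-treated library (95% limits 2.29 and 3.02).

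PN-miR166b thus fell by 1.39 on the log2 scale (95% limits -1.60 and -1.19, adjusted exact p = 1.57e-46). The p-value is from an exact two-sided binomial test. It was adjusted by the Benjamini-Hochberg method across the 94 listed sequences that met a read minimum in a library. The minimum was 10 reads for known miRNAs and 20 reads for predicted candidates. Predicted candidates to which the supplementary list gives a miRNA number were treated as known.

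PN-miR166, the sequence that starts 1 base later, had 93 raw reads in the Al-free library (95% limits 75.1 and 114) and 21 in the Al-treated library (13.0 to 32.1). The intervals of the 2 libraries did not overlap. Its place among all sequences went from 32nd to 66th. After normalization it was 4.95-fold lower (95% limits 3.05 and 8.36), a log2 ratio of -2.31 (95% limits -3.06 and -1.61, adjusted exact p = 3.22e-13).

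The 2 members that could be tested were both called lower. Over all 94 sequences tested, 25.5% were called lower by the same rule and 30.9% higher. Both members also passed a log2 ratio of -1, which 13.8% of all tested sequences did. The study used the same cut-off, but the Al-responsive miRNAs it lists include no miR166 sequence. No member had an identical sequence in its supplementary list of known miRNAs. Ordered from the lowest log2 ratio, PN-miR166 was the 5th and PN-miR166b the 10th of the 94, and the median of all was 0.21.

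PN-miR166a*, the third member, was at the limit of detection. It had 1 read in the Al-free library against 0 in the Al-treated library, too few for a ratio or a test. A count of 0 allows up to 3 reads, or 0.958% of the 313 miR166 reads of the Al-treated library.

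**Figure D1:**
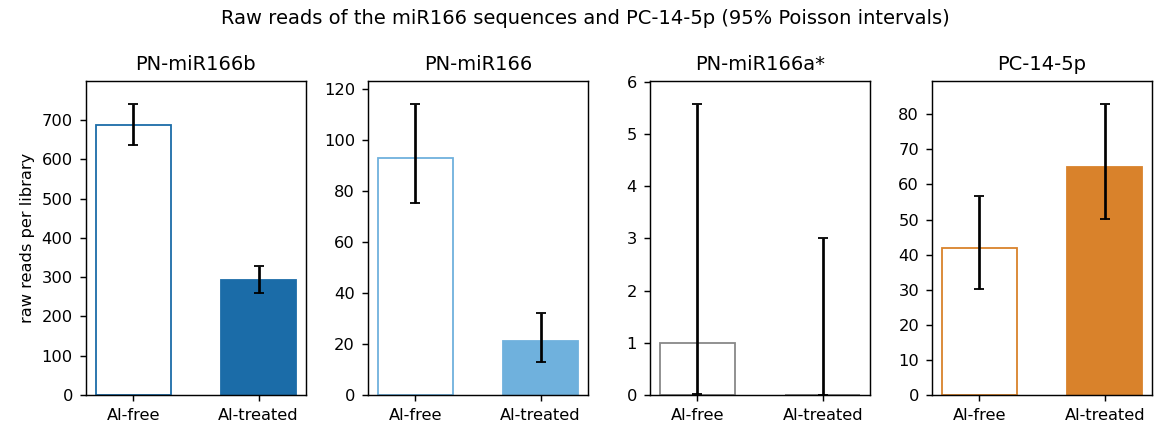
Raw reads (y axis, linear, a scale of its own for each panel) of the 3 miR166 sequences and of PC-14-5p in the Al-free (open bars) and Al-treated (filled bars) library, with exact 95% Poisson intervals. A count of 0 has a fixed bound of 3 reads instead. PN-miR166b stands at 687 and 292 reads and PN-miR166 at 93 and 21, while PC-14-5p stands at 42 and 65 with overlapping intervals.

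PC-14-5p, the 5p sequence, had 42 raw reads in the Al-free library (95% limits 30.3 and 56.8) and 65 in the Al-treated library (50.2 to 82.8). These intervals overlapped. Its log2 ratio was 0.47 (95% limits -0.11 and 1.07, adjusted exact p = 0.150), so a difference between the libraries was not detectable at this depth. Its place among all sequences was 43rd and 35th.

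**Figure D2:**
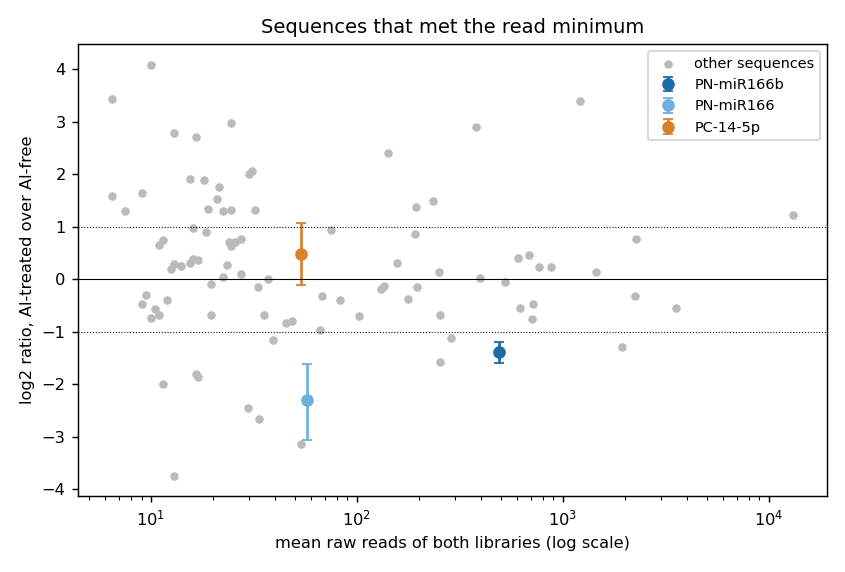
Normalized reads in the Al-treated over the Al-free library as a log2 ratio (y axis), against the mean raw reads of both libraries (x axis, log scale) for the 94 sequences that met the read minimum, with 95% intervals for the miR166 sequences and PC-14-5p and dotted lines at -1 and 1. PN-miR166b (-1.39) and PN-miR166 (-2.31) lie below -1, and PC-14-5p (0.47) lies between the lines.

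The make-up of the miR166 reads was compared next, because such shares do not depend on how the libraries are scaled. Of the 781 reads of the 3 members in the Al-free library, PN-miR166b held 88.0% (exact Clopper-Pearson interval from 85.5% to 90.2%) and PN-miR166 held 11.9% (9.72% to 14.4%). Of the 313 reads in the Al-treated library, PN-miR166b held 93.3% (89.9% to 95.8%) and PN-miR166 held 6.71% (4.2% to 10.1%). The later-starting sequence was therefore a smaller part of the family in the Al-treated library.

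The log2 ratio of PN-miR166b was 0.91 higher than that of PN-miR166 (95% limits 0.18 and 1.70, adjusted p = 0.0176, Fisher's exact test). The adjustment covered the 23 pairs of sequences with the same miRNA number and at least 10 reads each in a library, and 69.6% of these pairs differed by this rule. Such differences were thus common among the pairs of the table.

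With PC-14-5p counted beside the members, the 5p sequence took a larger share of the family in the Al-treated library. It held 5.10% of 823 reads in the Al-free library (exact 95% limits 3.70% and 6.84%) and 17.2% of 378 reads in the Al-treated library (13.5% to 21.4%). The log2 ratio of PN-miR166b minus that of PC-14-5p was -1.86 (95% limits -2.49 and -1.24, adjusted p = 2.18e-09, Fisher's exact test). For PN-miR166 minus PC-14-5p the difference was -2.78 (95% limits -3.73 and -1.84, adjusted p = 5.15e-10, Fisher's exact test). These p-values were adjusted over the 41 pairs formed when the supplementary names were added, of which 58.5% differed. PC-14-5p was chosen with its reads known, so these contrasts describe the reads of these libraries.

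**Figure D3:**
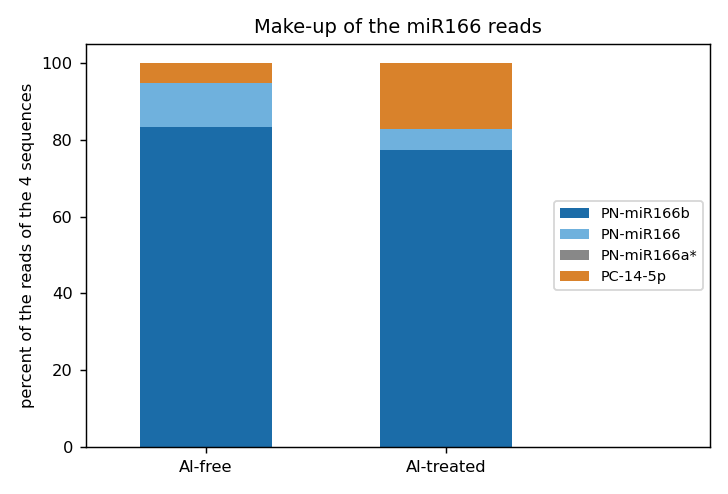
Share of each sequence (y axis, percent) in the reads of the 3 miR166 sequences and PC-14-5p for the Al-free library (823 reads) and the Al-treated library (378 reads). PN-miR166b holds 83.5% and 77.2%, PN-miR166 11.3% and 5.56%, and PC-14-5p 5.10% and 17.2%, while PN-miR166a* is too rare to be seen.

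The family total was lower in the Al-treated library. The 3 members summed to 781 raw reads without Al and 313 with Al, or 825 and 296 normalized reads. This is a log2 ratio of -1.48 (95% limits -1.67 and -1.29), a 2.79-fold lower sum, and PN-miR166b set most of it. The family held 2.57% of the listed Al-free reads and 0.703% of the listed Al-treated reads. With PC-14-5p added, the log2 ratio was -1.28 (95% limits -1.46 and -1.10). No p is given for these sums, since their members were chosen together.

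The other conserved miRNA families showed where miR166 stood. A fixed list of 25 family numbers taken as conserved was used, with miR156 and miR157 kept apart. Names came from the deposited and the supplementary lists, and 19 of the families had at least 10 reads in a library. Over all 22 families of the list found in the files, miR166 included and PC-14-5p left out, the raw reads summed to 6674 in each library. miR166 held 11.7% of them in the Al-free library (exact 95% limits 10.9% and 12.5%) and 4.69% in the Al-treated library (4.2% to 5.22%). Among all 77 numbered families, 8 had more reads than miR166 in the Al-free library against 16 in the Al-treated library.

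By log2 ratio of summed reads, miR166 was the 2nd lowest of the 19 conserved families. The lowest was miR164, which targets NAC transcription factors in *Arabidopsis*, with 96 and 13 reads and a log2 ratio of -3.04 (95% limits -4.00 and -2.20). The next above miR166 was miR2111, a phosphate- and nodulation-related family, with 74 and 41 reads and -1.01 (95% limits -1.60 and -0.44). This sum joined sequences with ratios of opposite sign, PC-29-3p (57 and 10 reads, -2.67) and PN-miR2111a (17 and 31 reads, 0.71). Only PC-29-3p passed the test, since the 95% limits of PN-miR2111a were -0.19 and 1.65. PC-29-3p was counted through its supplementary name, whereas PC-14-5p was left out of miR166, which had -1.28 with it. The interval of miR166 overlapped those of 2 families, miR2111 and miR157, and lay wholly below those of 15. The order of miR166 against miR2111 therefore could not be told from these reads. The other 18 conserved families had a median log2 ratio of 0.24, with 8 below and 10 above 0.

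**Figure D4:**
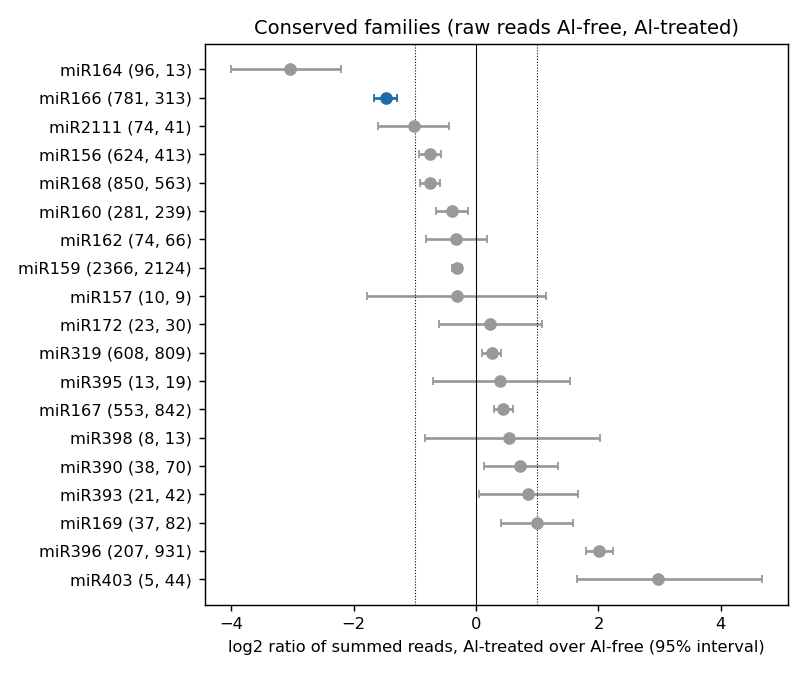
Log2 ratio of summed reads, Al-treated over Al-free (x axis), with 95% intervals for the 19 conserved families with at least 10 reads in a library, ordered from the lowest at the top, with raw reads of both libraries in brackets. miR166 (781 and 313 reads, -1.48, in blue) is the 2nd lowest, between miR164 (-3.04) and miR2111 (-1.01).

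Conserved sequences with similar abundance did not share a direction. The 5 with Al-free reads closest to PN-miR166b began with gso-miR167a, which targets auxin response factors in *Arabidopsis*. It had 541 and 833 reads and rose by a log2 ratio of 0.46 (95% limits 0.31 and 0.62). PN-miR168, which targets AGO1 in *Arabidopsis*, had 850 and 563 reads and fell by 0.75 (95% limits -0.91 and -0.60). The sequence of PN-miR319a and b, whose family targets TCP factors, had 485 and 720 reads and rose by 0.41 (95% limits 0.24 and 0.58). The sequence of PN-miR156b, c and d had 369 and 137 reads and fell by 1.59 (95% limits -1.88 and -1.30). The other abundant miR156 sequence, of PN-miR156c, d, e and g, had 195 and 197 reads and a log2 ratio of -0.14 (95% limits -0.44 and 0.15). Apart from this last one, each was past the adjusted exact binomial threshold, and PN-miR156b, c and d alone overlapped the interval of PN-miR166b.

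The 3 sequences with at least 100 reads in a library whose log2 ratio lay closest to that of PN-miR166b were gso-mir2109-p3 (2655 and 1201 reads, -1.30), PN-miR156b, c and d (-1.59) and PC-3-3p (377 and 194 reads, -1.12), which the supplementary list names PN-miR1507c. Likeness here is the distance between log2 ratios over 2 libraries only, so it describes these reads and nothing more. All 3 intervals overlapped that of PN-miR166b.

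A fixed group of families that control other developmental transcription factors or the auxin response was taken as the wider group around miR166. It was not complete, since miR393 (21 and 42 reads, family log2 ratio 0.84) was left out. The list held 11 families (miR156, miR157, miR159, miR160, miR164, miR167, miR169, miR172, miR319, miR390 and miR396) with 36 sequences, of which 23 met the read minimum. Of these 23, 5 (21.7%) were called lower, 7 (30.4%) higher and 11 did not pass. Over all 94 sequences the shares were 25.5% and 30.9%, so those of the group were close to the background. Their median log2 ratio was -0.14, against 0.21 over all 94 sequences. PN-miR164 had 95 and 12 reads, a log2 ratio of -3.14 (95% limits -4.15 and -2.27). PN-miR396a-1, which targets growth-regulating factors, went the other way with 81 and 676 reads, a log2 ratio of 2.90 (95% limits 2.57 and 3.25). PN-miR390b had 13 and 36 reads and rose by 1.31 (95% limits 0.36 and 2.35). The other miR390 sequences did not pass the test and differed in sign. PN-miR390a-1 had 12 and 25 reads and a log2 ratio of 0.90 (95% limits -0.15 and 2.03). PN-mir390b-p3 had 13 and 9 reads and -0.69 (95% limits -2.10 and 0.65). In *Arabidopsis*, miR390 starts the trans-acting siRNAs that act opposite to miR166 in leaf polarity.

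No target of miR166 was on the deposited degradome lists, which name transcripts whose cleavage the authors detected and carry no values. The Al-free list had 46 lines and the Al-treated list 85, which stood for 46 and 78 distinct pairs of miRNA and gene. In both lists 0 lines named miR166 and 0 named PC-14. By the number in the miRNA name, p3 and p5 strands included, targets were named for 8 conserved families in the Al-free list and 11 in the Al-treated list. Targets listed under a predicted-candidate name were not assigned to a family. Among the conserved families with at least 10 reads in a library, 10 had a target listed under their number and 9 had none. The 9 include miR403 (5 and 44 reads), whose reads were listed under the predicted-candidate name PC-13-3p. The study reports cleavage tags for targets of PN-miR403, so this split depends on the names used. Of the 9, miR168 had 850 Al-free reads and miR166 had 781, followed by miR164 with 96. All but 1 of the 12 conserved families with a target listed under their number had fewer Al-free reads than miR166, with a median of 122. The lists hold only pairs that passed the alignment and category thresholds, so a missing pair does not show that transcripts were not cleaved.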

How the data were processed

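Names, sequences and raw read counts were taken from the deposited small RNA lists. Per the labels, the authors made these counts with ACGT101-miR 4.2 after removing adaptor-less, short, junk, mRNA, Rfam and repeat reads, allowing at most 2 mismatches to miRBase. The deposited counts are raw and not normalized. Names that share a sequence carry the same count, so each distinct sequence was counted once. The deposited degradome lists hold other text only, a miRNA name and a gene identifier, called by the authors with CleaveLand 3.0 and ACGT301-DGE 1.0. Supplementary lists were used for names and sequences only.

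Ratios, exact intervals, binomial and Fisher tests were computed with SciPy 1.17.1, NumPy 2.4.6 and pandas 2.3.3 in Python 3.11.15, figures with matplotlib 3.10.9, and TMM factors with edgeR 4.0.16 in R 4.3.3. A count of 0 was bounded at 3 reads. With listed totals of 30411 and 44493 reads, the interval of a log2 ratio ran from -1.60 to -1.19 at 687 and 292 reads. Simulated counts with known changes were used to test these steps.

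The members and lists were chosen with earlier results of these data known. Named besides the members were sequences alike in seed or in the first 15 bases, the 3 closest in log2 ratio, the 5 conserved ones closest in Al-free reads, and 11 developmental families. The alternatives were other scalings, read minimums, a pseudocount, another test and other sets of sequences. With 1 library per condition, no replicate could be left out.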

Additional observations from a re-analysis of the deposited data

How the results depend on the processing

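Both members kept their direction and stayed past the test's threshold under all 9 alternatives run for each. Not all of these were separate checks. The read minimums changed only the adjustment of p, and the pseudocount changed only the ratio. The other test reused the ratio of a scaling already counted. The log2 ratio of PN-miR166b ran from -1.78 to -1.29 and that of PN-miR166 from -2.70 to -2.20. PC-14-5p stayed between 0.08 and 0.58, with adjusted exact p from 0.0714 to 0.876. The difference between PN-miR166b and PN-miR166 kept its call, with adjusted exact p of 0.0144 (pairs of at least 50 reads) and 0.0205 (supplementary names added). The log2 ratio of the family total was -1.87 with scaling by the summed reads, to which gso-miR2218 contributes most, and -1.28 with PC-14-5p, and from -1.67 to -1.37 otherwise. With PC-14-5p, an alternative chosen after seeing the data, PN-miR166b held 83.5% and 77.2% of the family.

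Of all sequences, 13 had a log2 ratio of -1 or lower. The number was 23 with scaling by the summed reads, 33 without a read minimum and 8 with a minimum of 50 reads. For a log2 ratio of 1 or higher it was 24, 53 without a minimum and 7 with 50 reads. Without a minimum or with 50 reads, more or fewer sequences were tested. Pairs of a family that differed numbered 16 of 23, 8 of 10 with at least 50 reads and 24 of 41 with supplementary names added. No paired analysis was possible because each condition had 1 library. Depth limits PN-miR166a* most, with 1 read in all.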

Other observations

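End variants like PN-miR166b and PN-miR166, in which 1 sequence starts 1 to 3 bases later and differs by at most 1 base in the overlap, numbered 15 pairs among the listed sequences. In 5 of these pairs both sequences had at least 10 reads in a library. The later-starting sequence had the lower ratio of raw reads, Al-treated over Al-free, in 2 of the 5, the miR166 pair included, and the higher ratio in the other 3. Among these 3, PC-47-3p (9 and 11 reads) was counted against both PC-4-3p and PC-4-5p, so the 5 pairs are not independent. The miR166 pair was the only 1 of the 5 in which both sequences had fewer raw reads in the Al-treated library. After normalization, PN-miR156c, d, e and g (log2 ratio -0.14) and its later-starting partner PN-miR157d (-0.31) also both lay below 0. Neither of these sequences was called lower. In the miR319 pair the sequences moved apart, from 121 to 83 reads for PN-miR319 and from 485 to 720 for PN-miR319a and b (difference of log2 ratios 1.11, interval from 0.66 to 1.57, adjusted p = 1.59e-06, Fisher's exact test over the 23 pairs of a family).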
